A study of Mus musculus with 4 samples.

Results

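The genes described here are 10 mouse genes whose transcription rises when the kinase ERK is active. They comprise the phosphatases *Dusp4*, *Dusp5* and *Dusp6*, the inhibitors *Spry1*, *Spry2*, *Spred1* and *Spred2*, the immediate early genes *Egr1* and *Fos*, and the ETS factor *Etv5*. All probes that carry one of these symbols on the array were taken, which gave 11 of 39429 probes and 10 of 31829 gene names. *Spred1* has 2 probes and each other gene has 1. Of the 11 probes, 10 were bright enough to be tested, among 23731 probes tested in all. The probe of *Spry2* was the exception.

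RNA was hybridised to 4 single-dye Agilent arrays for the mouse. All 4 samples were lineage-negative (Lin-) hematopoietic progenitor cells (HPCs) from mid-gestation fetal liver (FL) of *Ebf1*-/- mice, which lack the transcription factor EBF1 needed for B cell development. They were cultured for B cell differentiation on OP9 stroma cells, with SCF, IL-7 and Flt-ligand at 10 ng/mL each. The control group (EMPTY, 2 arrays) carried the empty GFP retrovirus, and the other group (*Mir195*, 2 arrays) carried the same retrovirus with a segment around *Mir195*. This segment came from the human cell line RS4;11, and was carried in by infection of the Lin- cells. Its level was not measured on the arrays. Neither the labels nor the methods say that infected cells were sorted for the arrays or that the replicates came from separate cultures or mice, so that p-values measure the spread between these samples, which may be technical. The study asked whether *Mir195* acts through kinase pathways, MAPK among them, which makes the genes that respond to ERK a readout of interest.

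ERK stands at the end of a chain of kinases that runs from Ras through RAF and MEK, and in early B cell progenitors it is switched on by cytokines such as those in this culture. Active ERK enters the nucleus, where it drives immediate early genes within minutes and, somewhat later, genes whose products shut the same chain down. Because these inhibitors depend on ERK for their own transcription, their mRNAs are widely used as a gauge of recent ERK activity. An array of mRNA does not measure the phosphorylation of ERK itself.

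The sequence of the miRNA is shown first because it is the agent that separates the groups. *Mir195* belongs to a family that shares its seed, the stretch at bases 2 to 8 that pairs with target mRNAs, and 10 mature mouse miRNAs in RefSeq (GRCm38.p6) carry this seed. The mouse member named for *Mir195* and 3 close relatives are given, with the seed in capitals.
mmu-miR-195a-5p: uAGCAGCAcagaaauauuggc
mmu-miR-16-5p: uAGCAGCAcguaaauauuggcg
mmu-miR-15a-5p: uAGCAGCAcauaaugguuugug
mmu-miR-497a-5p: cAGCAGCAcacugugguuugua
The letters after the seed differ between them. Sites for the seed in the mRNAs of the 10 genes were not analysed here.

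Promoter sequences, from 250 bases before to 50 bases after the gene start, were given for 8 of the 10 genes in 9 entries (RefSeq, GRCm38.p6). *Dusp4* and *Egr1* had none. The windows shown hold motifs through which ERK signalling is known to reach immediate early genes. The CArG box, the core bound by serum response factor, occurred in 1.63% of 32851 promoters and in 1 of the 9 entries, that of *Dusp5*, in which 2 boxes start 82 and 72 bases before the gene start. The motif TGACGT, searched on both strands and contained in the longer cAMP response element TGACGTCA, occurred in 7.51% of promoters and in 3 of the 9 entries, those of *Fos*, *Dusp5* and *Spred2*. The windows lie at chr19:53529058-53529087 and chr12:85473815-85473838, both on the plus strand, with the motif in capitals.
Dusp5: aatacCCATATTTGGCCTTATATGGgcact
Fos: tccgcccagTGACGTaggaagtcc
None of the 9 entries held TGACGTCA (1.79% of all promoters), the AP-1 motif TGANTCA (7.81%), the EGR motif GCGTGGGCG (0.612%) or the ETS motif CCGGAAGT (3.89%). A match describes letters in a window and is not evidence that a factor binds there. A motif absent from an entry may still lie outside it, where no search was made.

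The arrays were similar in depth. Between 23658 and 24671 probes per array were well above background, the signal had its 75th percentile at 902 to 1127, the median local background was 38 to 39, and no spot was saturated. All values below are log2 signals from which the 75th percentile of their own array was subtracted, so that 0 is that percentile, and differences are *Mir195* minus EMPTY. A level of one probe cannot be set against that of another. The 4 arrays shared a slide, on which both EMPTY arrays came before both *Mir195* arrays, and place on the slide therefore cannot be told apart from the virus. The single *Ebf1* probe gave 1.85 to 2.03 on the 4 arrays, and whether it lies in the disrupted part of the gene is not given in the sources used here. With 2 arrays per virus, the exact two-sided permutation test of 1 gene cannot reach a p below 0.333, and precision is limited by the number of arrays.

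None of the 10 tested probes passed limma's moderated test between the viruses, with adjusted p-values from 0.625 to 0.996. Over all tested probes the share called was likewise 0 percent, with 0 of 23731 probes past the adjusted threshold of 0.05 and 1979 (8.34%) at an unadjusted p under it. That count became 904 without *Mir195* replicate 1 and 3 without *Mir195* replicate 2, while the count of member probes called was 0 in both cases. With 1 *Mir195* array left, the spread comes from the 2 EMPTY arrays alone and the lone array is assumed to vary like them, which holds for every p-value given here without a *Mir195* replicate. None of the 10 member probes was below the unadjusted threshold with all 4 arrays. The largest differences between the viruses were those of *Dusp6* (0.34) and of 1 of the 2 *Spred1* probes (0.27), both higher with *Mir195*. Larger than these was the distance between the 2 *Mir195* arrays for *Fos*, *Spry1* and *Dusp4*, which was close to 3-fold. The median log2 fold change of the 10 probes was 0.06, beside 0.01 over all tested probes, and 6 were higher and 4 lower with *Mir195*, where 47% of all tested probes were lower. The median of the 10 probes was 0.33 without *Mir195* replicate 1 and reversed to -0.19 without *Mir195* replicate 2.

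**Figure D1:**
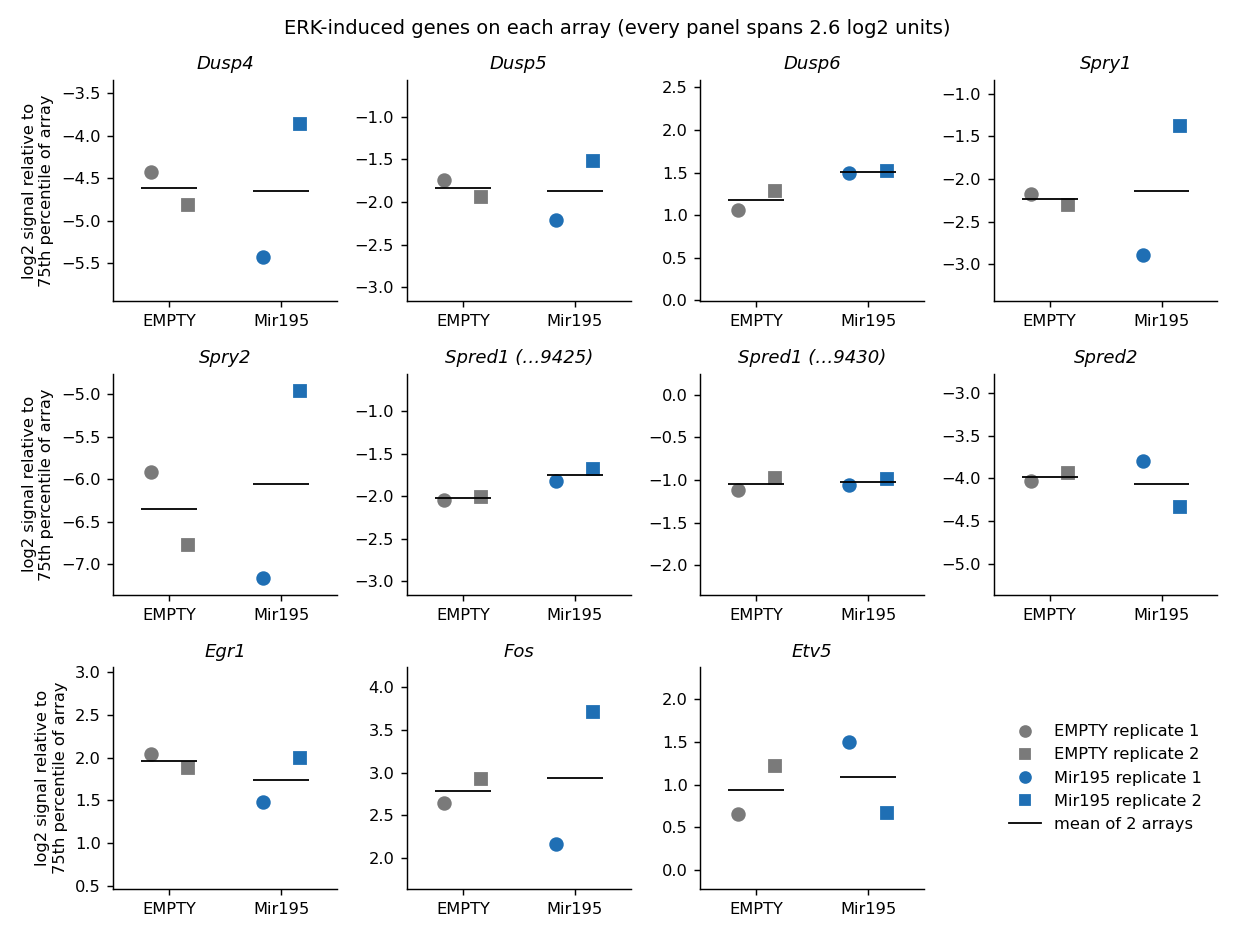
Log2 signal less the 75th percentile of its array (vertical axis, the same span in every panel) for the 11 probes, with EMPTY arrays in grey, *Mir195* arrays in blue, and a line at the mean of the 2 arrays of each virus. In *Dusp4*, *Dusp5*, *Spry1*, *Spry2* and *Fos* the *Mir195* arrays lie on either side of both EMPTY arrays, while in *Dusp6* and 1 *Spred1* probe both *Mir195* arrays lie above them.

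*Dusp6*, a cytoplasmic phosphatase that removes the activating phosphates from ERK and is among the most direct transcriptional readouts of the pathway, lies at chr10:99263231-99267489. Its probe (A_51_P502614) gave 1.06 and 1.29 under EMPTY, against 1.50 and 1.52 under *Mir195*. Both *Mir195* arrays were above both EMPTY arrays, and they differed from each other by 0.02, less than 94.8% of all tested probes did. The log2 fold change was 0.34 (1.26-fold, standard error 0.14, 95% interval -0.02 to 0.70), with an unadjusted p of 0.0595 and an adjusted p of 0.625 from limma. Under 13 alternatives the value ran from 0.22 to 0.46, and the lowest limma adjusted p was 0.288. Its sign could not change when 1 array was left out, since the groups did not overlap. Other filters, robust eBayes and the replicate block left the value at 0.34 by design. Groups that do not overlap in this direction were found in 23.4% of all tested probes, so that such an order is common on these arrays.

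*Dusp5*, a nuclear phosphatase specific for ERK whose promoter window with 2 CArG boxes is shown above, lies at chr19:53529145-53541809. Its probe (A_55_P2063237) gave -1.74 and -1.94 under EMPTY, against -2.21 and -1.52 under *Mir195*. The *Mir195* arrays held the lowest and the highest value, and the groups overlapped. The fold change was -0.03 (standard error 0.26, 95% interval -0.70 to 0.65, limma adjusted p = 0.991). It was 0.03 with normexp background correction and 0.07 with the values the authors deposited, and it turned to 0.31 without *Mir195* replicate 1 and was -0.37 without *Mir195* replicate 2. The *Mir195* arrays differed by 0.68 (1.61-fold), a size that 6.83% of tested probes reached.

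*Dusp4*, a nuclear phosphatase that acts on ERK and related kinases, lies at chr8:34807610-34819894. Its probe (A_51_P518051) was dim, with 52.3 and 36.6 units of signal under EMPTY, against 21.0 and 63.1 under *Mir195*, after subtraction of the background. On the log2 scale these were -4.43 and -4.81, against -5.42 and -3.87. Again *Mir195* replicate 1 was the lowest array and *Mir195* replicate 2 the highest. The difference between the viruses was -0.02 (standard error 0.53, 95% interval -1.42 to 1.37, limma adjusted p = 0.996), or 0.20 with normexp. Without *Mir195* replicate 1 it was 0.75, and without *Mir195* replicate 2 it was -0.80. The *Mir195* arrays differed by 1.55 (2.94-fold), which 0.855% of tested probes reached, but by 0.68 when the background was corrected with normexp, a model that holds dim signals away from 0.

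The wider family of phosphatases for MAP kinases was described by 8 tested probes of 7 genes, of which 4 were higher and 4 lower, with a median log2 fold change of 0.06 and 0 called. *Dusp2*, an inducible nuclear phosphatase of blood cells, gave 4.68 and 4.99 under EMPTY, against 4.82 and 5.18 under *Mir195*. The groups overlapped. *Dusp14* had the largest rise in value, from -3.79 and -4.13 to -3.57 and -2.87. Its log2 fold change of 0.74 (standard error 0.28) had an unadjusted p of 0.0464 and did not pass adjustment (limma adjusted p = 0.591). The largest fall in value was -0.21 for *Dusp7* (limma adjusted p = 0.873), a cytoplasmic relative of *Dusp6*. *Dusp8* was not well above background on any of the 4 arrays.

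**Figure D2:**
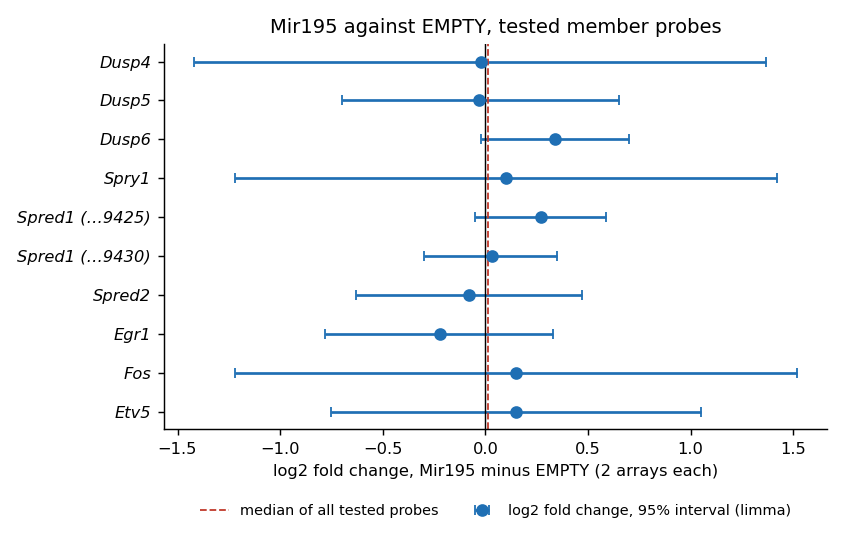
Log2 fold change of *Mir195* against EMPTY (horizontal axis) with its 95% interval from limma for the 10 tested member probes, and a dashed line at the median of all tested probes (0.01). Every interval includes 0, with those of *Dusp4*, *Spry1* and *Fos* the widest and those of *Dusp6* and *Spred1* among the narrowest.

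The Sprouty proteins, encoded by *Spry1* and *Spry2*, are induced by ERK and block receptor signalling upstream of Ras and RAF. *Spry1* lies at chr3:37639947-37644599. Its probe (A_55_P1952235) gave -2.17 and -2.30 under EMPTY, against -2.89 and -1.38 under *Mir195*. The EMPTY arrays lay close together, between the *Mir195* arrays. The fold change was 0.10 on the log2 scale (standard error 0.51, 95% interval -1.22 to 1.42), with an adjusted p of 0.98 from limma. It became 0.85 without *Mir195* replicate 1 (limma adjusted p = 0.054) and reversed to -0.65 without *Mir195* replicate 2 (limma adjusted p = 0.411). The *Mir195* arrays differed by 1.51 (2.85-fold), a size that 0.91% of tested probes reached, and by at least 1.14 under each background correction and scaling tried.

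*Spry2* lies at chr14:105891947-105896819, and its probe (A_55_P1952251) was well above background on EMPTY replicate 1 and *Mir195* replicate 2 alone. It therefore did not enter the test. Its signal was 18.67 and 9.431 units under EMPTY, against 6.292 and 29.64 units under *Mir195*, all below the local background that had been subtracted. The order of the arrays was that of *Spry1*, with *Mir195* replicate 1 the lowest and *Mir195* replicate 2 the highest. Without a filter on dim probes the log2 fold change was 0.28 (standard error 0.83, 95% interval -1.99 to 2.55, limma adjusted p = 0.926). The gap between the *Mir195* arrays shrank from 2.21 to 0.44 with normexp, so its size could not be fixed at this brightness. The related *Spry3* and *Spry4* were not well above background on any of the 4 arrays.

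*Spred1* and *Spred2* encode relatives of Sprouty that hold back the activation of RAF by Ras. *Spred1* lies at chr2:117121071-117182279 and its 2 probes differed. Probe A_55_P2079425 gave -2.04 and -2.01 under EMPTY, against -1.82 and -1.68 under *Mir195*. The groups did not overlap. The difference between the viruses was 0.27 (1.21-fold, standard error 0.12, 95% interval -0.05 to 0.59), with an unadjusted p of 0.081 and a limma adjusted p of 0.664, and it ran from 0.17 to 0.34 over the alternatives. Probe A_55_P2079430 gave -1.12 and -0.98 against -1.06 and -0.99, with both *Mir195* arrays inside the range of the EMPTY arrays. Its fold change was 0.03 (standard error 0.12, 95% interval -0.30 to 0.35, limma adjusted p = 0.977), and it fell below 0 with quantile normalization (-0.03), median scaling (-0.07) and without EMPTY replicate 1 (-0.05) or *Mir195* replicate 2 (-0.01). The rise in value of *Spred1* thus stood in 1 of its 2 probes. Where on the transcripts the probes lie is not given in the sources used here.

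*Spred2* lies at chr11:19924442-20024026. Its probe (A_55_P2025840) gave -4.03 and -3.94 under EMPTY, against -3.80 and -4.34 under *Mir195*. It was dim, with 68.87 and 67.18 units of signal under EMPTY, against 64.88 and 45.58 under *Mir195*. Here the order within the *Mir195* group was the opposite of that of the Sprouty genes, with *Mir195* replicate 2 the lowest array. *Mir195* replicate 2 minus replicate 1 was -0.54, and -0.15 with normexp. The difference between the viruses was -0.08 (standard error 0.21, 95% interval -0.63 to 0.47, limma adjusted p = 0.958) and changed sign to 0.17 with normexp and to 0.19 without *Mir195* replicate 2.

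Of the other feedback inhibitors, 3 of 7 probes were tested and 0 were called. *Errfi1*, an inhibitor of receptors of the EGF family, had the largest fall in value (-0.12, limma adjusted p = 0.903), and *Rasal1*, which turns Ras off, had the largest rise in value (0.17, limma adjusted p = 0.897). *Il17rd* was well above background on 2 arrays and *Spred3* on 1.

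*Fos*, which encodes a subunit of the AP-1 factor and is induced within minutes of ERK activation, lies at chr12:85473890-85477274. It is the best measured of the genes, since its probe (A_52_P262219) is spotted 10 times on each array. The mean log2 signal was 2.64 and 2.93 under EMPTY, against 2.16 and 3.71 under *Mir195*. The 10 spots ran from 2.57 to 2.72 and from 2.85 to 3.02 on the EMPTY arrays, from 2.05 to 2.25 on *Mir195* replicate 1, and from 3.60 to 3.77 on *Mir195* replicate 2. No spot of one array reached the range of another. The standard deviation over spots was 0.047 to 0.062, against 1.55 (2.92-fold) between the *Mir195* arrays, a size that 0.864% of tested probes reached. This difference ran from 1.43 to 1.65 over the background corrections and scalings tried, and repeated spots measure an array and are not replicates of the virus.

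Across viruses, the log2 fold change of *Fos* was 0.15 (standard error 0.52, 95% interval -1.22 to 1.52, limma adjusted p = 0.971). It was 0.92 without *Mir195* replicate 1 (limma adjusted p = 0.0605) and reversed to -0.63 without *Mir195* replicate 2 (limma adjusted p = 0.483). The sign of the *Fos* difference therefore depended on which *Mir195* array was used.

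*Egr1*, a zinc finger factor of the immediate early class, was bright on all arrays (probe A_51_P367866). Its log2 signal was 2.04 and 1.88 under EMPTY, against 1.48 and 2.0 under *Mir195*. *Mir195* replicate 1 was again the lowest array, while *Mir195* replicate 2 lay within the range of the EMPTY arrays. The difference between the viruses was -0.22 (standard error 0.21, 95% interval -0.78 to 0.33, limma adjusted p = 0.88). Without *Mir195* replicate 2 it was -0.49, but without *Mir195* replicate 1 it was 0.04. The *Mir195* arrays differed by 0.53 (1.44-fold), a size that 11.4% of tested probes reached.

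Other immediate early genes were described by 22 tested probes of 19 genes, with 14 higher and 8 lower in the *Mir195* group, a median log2 fold change of 0.08 and 0 called. *Nr4a1*, an orphan nuclear receptor of rapid induction, gave 3.09 and 3.59 under EMPTY, against 2.83 and 4.25 under *Mir195*. Like *Fos*, it had its lowest and its highest array in the *Mir195* group. The largest rise in value was that of *Fosb*, a partner of AP-1 related to *Fos*, from 0.68 and 1.33 to 0.97 and 3.17. Its log2 fold change of 1.06 (standard error 0.75, limma adjusted p = 0.825) rested on *Mir195* replicate 2, since the other *Mir195* array lay between the EMPTY arrays. The largest fall in value was that of *Arc*, a target of serum response factor, from -2.72 and -3.30 to -4.00 and -3.55. Its groups did not overlap, and its log2 fold change was -0.77 (standard error 0.26, limma adjusted p = 0.562). Probes of *Egr3*, *Egr4* and *Nr4a3* were not well above background on any of the 4 arrays.

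*Etv5*, an ETS factor of the PEA3 group that is transcribed downstream of ERK in many tissues, lies at chr16:22381313-22439570. Its probe (A_55_P2037454) gave 0.65 and 1.22 under EMPTY, against 1.50 and 0.67 under *Mir195*. The groups overlapped, and *Mir195* replicate 1 was the highest array, the reverse of *Fos*. The difference between the viruses was 0.15 (standard error 0.34, 95% interval -0.75 to 1.05, limma adjusted p = 0.955) and turned to -0.26 without *Mir195* replicate 1 and to -0.14 without EMPTY replicate 1. The EMPTY arrays themselves differed by 0.57, a size that 5.79% of tested probes reached. Of its relatives, *Etv4* was at -3.51 and -3.31 under EMPTY and -3.28 on either *Mir195* array (fold change 0.13, limma adjusted p = 0.889), and *Etv1* at -3.91 and -3.84 against -4.38 and -3.99 (fold change -0.32, limma adjusted p = 0.746). Both have another probe, which was below background on all arrays.

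**Figure D3:**
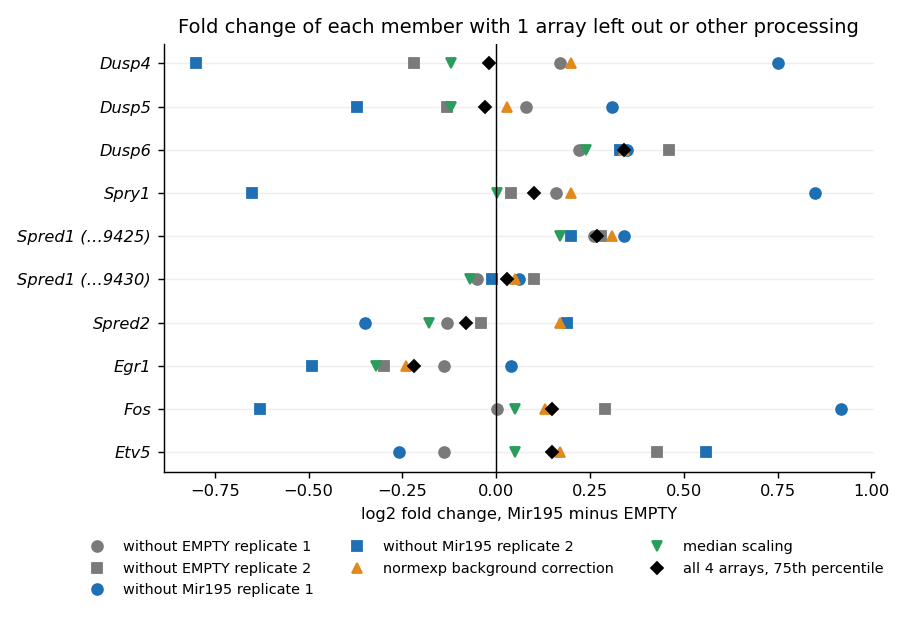
Log2 fold change of each tested member probe (horizontal axis) with all 4 arrays (black), with 1 array left out (grey, EMPTY; blue, *Mir195*), and with another background correction or scaling (orange, green). Leaving out *Mir195* replicate 1 or replicate 2 moved *Dusp4*, *Spry1* and *Fos* by more than 0.6 in opposite directions. *Dusp6* and *Spred1* probe A_55_P2079425 stayed above 0 in every setting drawn. With 1 array left out they could not do otherwise, since their groups do not overlap.

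The order of the arrays was then counted over the genes, a count chosen after their values were seen. In 4 of the 10 tested probes (40%), those of *Dusp4*, *Dusp5*, *Spry1* and *Fos*, *Mir195* replicate 1 was the lowest of the 4 arrays and *Mir195* replicate 2 the highest, as it was for *Spry2*. Over all tested probes this order held for 1516 (6.39%). *Mir195* replicate 2 was above replicate 1 in 8 of the 10 probes, beside 47.7% of all tested probes. The median distance between the *Mir195* arrays was 0.61 for the 10 probes and 0.19 for all tested probes, whereas the distance between the EMPTY arrays was 0.17 and 0.15. Groups did not overlap in 2 of the 10 probes (20%), beside 37.8% of all tested probes. *Etv5* and the dim *Spred2* instead had *Mir195* replicate 1 above replicate 2, and *Dusp6* and *Spred1* differed little between the *Mir195* arrays.

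**Figure D4:**
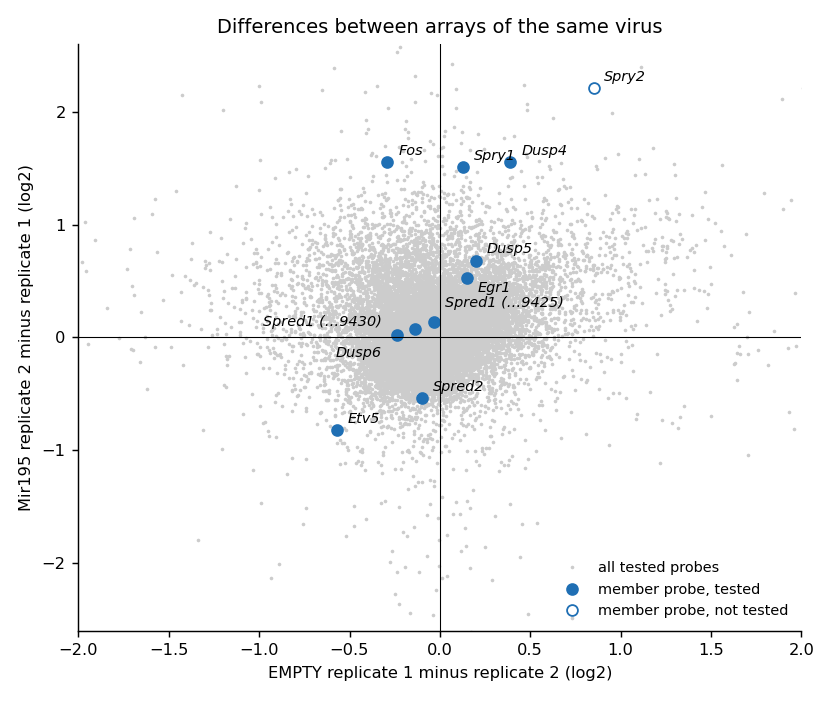
Difference between the 2 EMPTY arrays (horizontal axis, log2) and between the 2 *Mir195* arrays (vertical axis, log2) for all tested probes (grey) and the member probes (blue, with *Spry2*, which was not tested, open); a few grey points lie outside the axes. *Fos*, *Spry1* and *Dusp4* lie near 1.5 on the vertical axis and near 0 to 0.4 in size on the horizontal axis, far from the mass of the probes, while *Dusp6* and *Spred1* lie within it.

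Among other immediate early genes the same order was found in 9 of the 22 tested probes, and *Mir195* replicate 2 was above replicate 1 in 20 of 22, with a median difference of 0.52. The summed linear level of the list was 48.9 and 50.7 under EMPTY, against 42.9 and 79.8 under *Mir195*, in units of the 75th percentile. *Atf3*, *Fosb* and both probes of *Nr4a2* differed by 2.03 to 2.38 between the *Mir195* arrays. Delayed genes of the ERK response were above in *Mir195* replicate 2 in 8 of 8 probes, by a median of 0.38. The distance ran from 0.03 for *Ccnd1* and 1 *Mcl1* probe to 1.06 for *Phlda1*. Between the viruses 0 of these probes were called. *Epha2* had the largest rise in value (0.20, limma adjusted p = 0.875) and *Hbegf* the largest fall (-0.35, limma adjusted p = 0.827). *Mcl1*, with the highest mean signal, had -0.01 (limma adjusted p = 0.995). Of the 8 other MAPK phosphatase probes, 6 were above in *Mir195* replicate 2, among them *Dusp1* (1.24), a phosphatase induced at once by growth factors and stress.

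For genes of the chain that activates ERK the distance between the *Mir195* arrays centred near 0. Of 32 tested probes of 20 genes from Ras to ERK, 14 were higher on *Mir195* replicate 2 than on replicate 1, with a median difference of -0.03, and the summed levels were 111 to 115 on the 4 arrays. With *Mir195*, 15 were higher and 17 lower, with a median log2 fold change of -0.02, 0 called and a lowest limma adjusted p of 0.53. *Mapk3*, which encodes ERK1 and is a predicted target of *Mir195*, gave 2.41 and 2.44 under EMPTY, against 2.35 and 2.19 under *Mir195* with 1 of its probes (fold change -0.16, limma adjusted p = 0.846). Both of its probes were lower on both *Mir195* arrays, an order that 14.4% of all tested probes had. The study also reported less *Mapk3* mRNA by qPCR, repression of a luciferase reporter carrying its untranslated region, and lower expression on the arrays. The largest rise in value was that of the adaptor *Gab1* (0.55, standard error 0.14, limma adjusted p = 0.53), a dim probe, and the largest fall in value that of *Rasgrp1*, an activator of Ras in lymphocytes (-0.30, limma adjusted p = 0.92). *Ptpn11*, the phosphatase that couples receptors to Ras, had a fold change of -0.06 (limma adjusted p = 0.952).

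**Figure D5:**
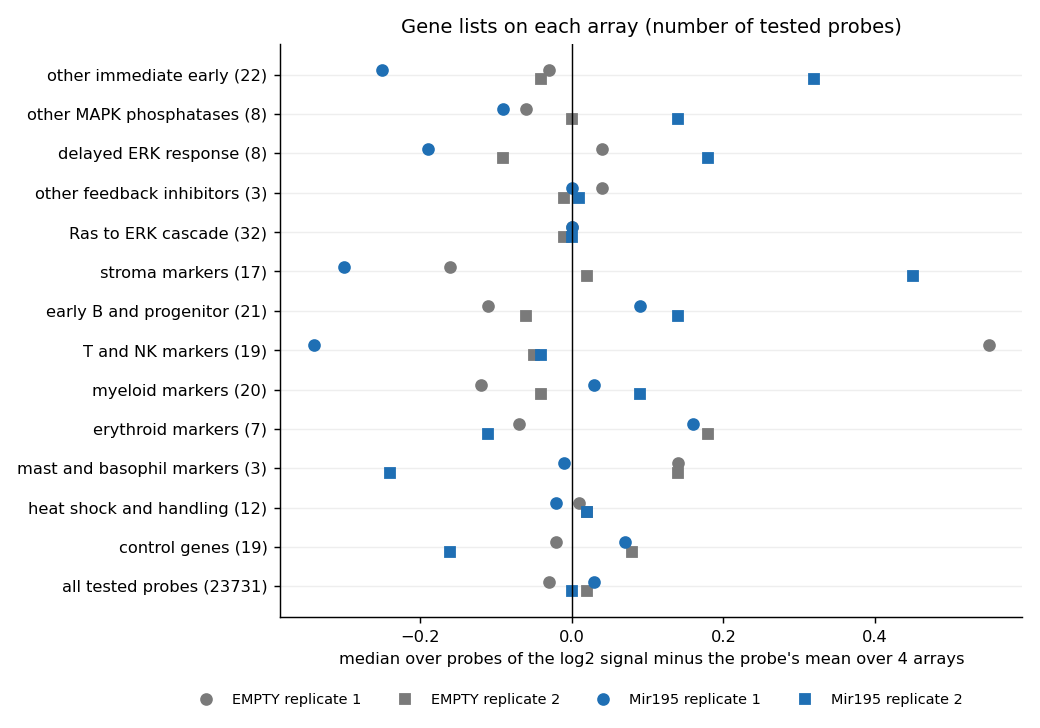
Median over the tested probes of each list (number in brackets) of the log2 signal minus the mean of the probe over the 4 arrays (horizontal axis), with EMPTY arrays in grey and *Mir195* arrays in blue. Other immediate early genes and stroma markers are lowest on *Mir195* replicate 1 (-0.25 and -0.30) and highest on *Mir195* replicate 2 (0.32 and 0.45), while the Ras to ERK cascade and the heat shock genes stay within 0.02 of 0 on every array.

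Markers of stroma cells moved with this order of the arrays. Of 17 tested probes for stroma cells, 15 were higher on *Mir195* replicate 2 than on replicate 1, and 12 had *Mir195* replicate 1 lowest and *Mir195* replicate 2 highest. Their summed level was 14.2 and 15.2 under EMPTY, against 13.3 and 24.5 under *Mir195*. The collagens *Col1a1*, *Col1a2* and *Col3a1*, the matrix genes *Sparc* and *Fn1* and the chemokine *Cxcl12* were among those highest on *Mir195* replicate 2. *Adipoq* and *Fabp4* were instead lowest there. Probes for *Lum*, *Dcn*, *Pdgfra*, *Postn* and 1 of 2 for *Vcam1* were not well above background on any of the 4 arrays. The part of stroma cells in the values of *Fos*, *Spry1*, *Dusp4* and *Dusp5* was not tested. In RNA from a whole culture, fewer cells of a type and less RNA per cell cannot be told apart.

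In the lists of heat shock genes and of B cell, myeloid, T and NK, erythroid and mast cell markers, 0 probes had *Mir195* replicate 1 lowest and *Mir195* replicate 2 highest. The 12 heat shock and handling probes had a median difference of -0.03, with 5 of 12 higher on *Mir195* replicate 2, and summed levels of 310 to 348. Early B cell and progenitor markers were present, with 21 tested probes of 16 genes summing to 158 and 172 under EMPTY, against 181 and 166 under *Mir195*. Of those 21 probes, 15 were higher and 6 lower with *Mir195*, with a median log2 fold change of 0.20. Without overlap of the groups, 10 of the 21 were higher and 3 lower, beside 23.4% and 14.4% of all tested probes. Myeloid markers summed to 22.0 to 22.4 on all arrays, but 14 of their 20 probes were higher with *Mir195* (median 0.11). Without overlap of the groups, 7 of the 20 were higher and 2 lower, beside the same 23.4% and 14.4% of all tested probes. T and NK cell markers summed to 56.1 to 60.7, a sum dominated by the bright probe of *Lck*. Of their 19 probes, 17 were lower with *Mir195* (median -0.30). Groups did not overlap in 6 of the 19, all lower, beside 14.4% of all tested probes in that direction. The median deviation was 0.55 on EMPTY replicate 1 and -0.34 on *Mir195* replicate 1. Erythroid markers summed to 2.02 to 3.71 and mast cell and basophil markers to 1.05 to 1.35, with 5 of 7 and 2 of 3 probes lower. None of the lists of markers had a probe called, and their part in the results was not tested. For the 19 control gene probes, of which 1 had that order, the median difference between the *Mir195* arrays was -0.21.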

How the data were processed

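RNA of 4 samples was hybridised to Agilent Whole Mouse Genome arrays, with 100 ng of RNA labelled per sample. The authors deposited scanner output of Agilent Feature Extraction (version 11.5.1.1 per the submitters' processing notes), from which the processed intensity of each spot was used, after subtraction of background and a spatial trend, with its flags for background, saturation and outliers. The authors' own log2 values, also deposited, were scaled to the 75th percentile of each array. They correlated with the values used here at r = 0.998 across probes on each array and served as an alternative. Samples were grouped by their titles. The members, the lists and the tests were chosen with earlier results of these data known.

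Control spots and outlier spots were left out, spots of a probe were averaged as log2 intensity, and the 75th percentile of the array was subtracted. Gene positions are those of RefSeq GRCm38.p6, matched by accession for 26055 probes. A probe entered if both arrays of either virus showed it well above background. This left 23801 probes, and 23731 after 70 with outlier spots were removed. These were fitted with limma 3.58.1 (lmFit and eBayes, two-sided, Benjamini-Hochberg over all probes) in R 4.3.3, with the reader of data.table (version 1.17.8). A call needed an adjusted p under 0.05. The method was tested on simulated data. Every member probe is reported. Of other lists of the pathway, the genes with the largest rise and fall in value are named. The gene whose probe had the highest mean signal is also named, as a rule and not as a comparison of levels. Other genes, in these and the remaining lists, were named after their values were seen, as examples of the order of the arrays or of background.

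The alternatives were normexp (offset 50), quantile normalization, scaling by the median or by the 75th percentile of detected probes, the deposited table, no filter on dim probes, a filter over all 4 arrays, robust eBayes with a trend, a block for the replicate number, the methods' t-test and each array left out. The methods' t-test took the differences between arrays of the same number, and so treated the numbers as pairs. Probe sequences were not used here.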

Additional observations from a re-analysis of the deposited data

How the results depend on the processing

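Of 130 values of the 10 member probes, computed under 13 alternatives each, 112 kept their sign and 18 reversed. Other filters, robust eBayes and the replicate block leave each fold change as it is. No sign could reverse under those settings, so the count of kept signs overstates stability. The count of member probes called was 0 in every alternative run. Over all probes the count of 0 became 3 with median scaling, 5 with the replicate block, 1134 with the methods' t-test before adjustment (0 after), and 0 to 904 with 1 array left out, of which 904 were without *Mir195* replicate 1 and 3 without *Mir195* replicate 2. The members' median of 0.06 ran from -0.19, without *Mir195* replicate 2, to 0.33, without *Mir195* replicate 1. Arrays of the same number deviated with r = -0.101. With 2 arrays per virus, and labels silent on pairing, this value cannot decide whether the numbers pair the samples. A crossed block, added after seeing the data, gave 0 calls.

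Reversals with normexp were *Dusp4* (0.20), *Spred2* (0.17) and *Dusp5* (0.03), and with the deposited table *Dusp5* (0.07). *Spred1* probe A_55_P2079430 became -0.07 with median scaling and -0.03 after quantile normalization. Without EMPTY replicate 1, *Dusp4* became 0.17, *Dusp5* 0.08, *Etv5* -0.14 and *Spred1* probe A_55_P2079430 -0.05. Without *Mir195* replicate 1, *Dusp4* became 0.75, *Dusp5* 0.31, *Etv5* -0.26 and *Egr1* 0.04. Without *Mir195* replicate 2, *Fos* became -0.63, *Spry1* -0.65, *Spred2* 0.19 and *Spred1* probe A_55_P2079430 -0.01. The other ends of these ranges were -0.80 for *Dusp4*, -0.37 for *Dusp5*, 0.56 for *Etv5* and -0.49 for *Egr1* without *Mir195* replicate 2, 0.92 for *Fos*, 0.85 for *Spry1* and -0.35 for *Spred2* without *Mir195* replicate 1, and 0.10 for *Spred1* probe A_55_P2079430 without EMPTY replicate 2. The cause was not tested.

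The median of all probes moved from 0.01 to -0.08 with median scaling and to 0.07 with normexp. At an unadjusted p under 0.05, 1483 probes were higher and 496 lower, against 3418 and 336 with normexp, 1112 and 807 with median scaling, and 1272 and 692 after quantile normalization. Signals near background limit *Dusp4*, *Spred2* and *Spry2*.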
